A study of Mus musculus with 9 samples.

Results

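In 9 libraries of rat ulcer skin, Fam111a stood at either a high or a low level. It was high in all non-diabetic ulcers and low in diabetic ulcers, except in 1 diabetic library treated with platelet-rich plasma. Fam111a was chosen for this pattern, and it is 1 gene of the 30560 in the deposited expression table (28370 after rows of the same gene name were summed, 15600 of which were tested). Its levels are therefore given as a description, with no test.

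FAM111A is a nuclear protein with a trypsin-like serine protease domain. In human cells it binds the sliding clamp PCNA, acts at replication forks and helps remove proteins that are crosslinked to DNA. It is also a restriction factor that limits the replication of some DNA viruses in human cells. Dominant mutations of the human gene cause Kenny-Caffey syndrome and osteocraniostenosis, which are disorders of bone growth and of the parathyroid.

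RNA was sequenced from ulcer skin on day 21, in 3 groups of 3 libraries that the labels number as biological replicates. The first group was diabetic ulcers given platelet-rich plasma (PRP, plasma with concentrated platelets), the second diabetic ulcers given saline, and the third non-diabetic ulcers given saline. Each animal received 0.5 ml into the wound on days 1, 7, 14 and 21, so saline injections were shared by both groups without PRP. The series design calls the animals rats, while the labels name mouse as the organism. All 30560 gene identifiers are rat Ensembl identifiers. The sources used here name no strain, no age and no way in which diabetes was induced. Levels are FPKM, fragment counts divided by gene length and by library size, as the authors deposited them.

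No read totals for whole libraries come with these tables. Relative depth, taken from the ratio of counts to FPKM over 81 long non-coding RNAs, was 0.839 to 1.116 of the average library. The median level of the tested genes was 6.02 to 7.06 FPKM in every library. The epidermal keratin gene Krt5, a marker of skin, was measured in every library, at 40.8 FPKM in non-diabetic replicate 3 and at 507 to 2499 FPKM elsewhere. Non-diabetic replicates 1 and 3 stood apart from the other libraries in the levels of hair, epidermal and muscle genes, as described with the large gaps below. A lower level in whole skin can come from fewer cells of a type or from less RNA per cell, and these cannot be told apart in bulk samples.

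Fam111a (ENSRNOG00000012067, protein-coding, chromosome 1, 209640953 to 209656547, plus strand, in the rat coordinates of the table, for which the sources name no rat build) has 1 row in the table. No other row has a name starting with Fam111, and no other feature overlaps its span. In the PRP libraries Fam111a was at 50.9, 1.56 and 1.83 FPKM in replicates 1, 2 and 3. In the diabetic saline libraries it was at 1.35, 3.17 and 3.91 FPKM. In the non-diabetic libraries it was at 74.5, 64.4 and 133 FPKM. Thus PRP replicate 1 was high, the other PRP libraries were low, all diabetic saline libraries were low and all non-diabetic libraries were high. Nothing in the labels beyond the replicate number sets PRP replicate 1 apart from the other PRP libraries.

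**Figure D1:**
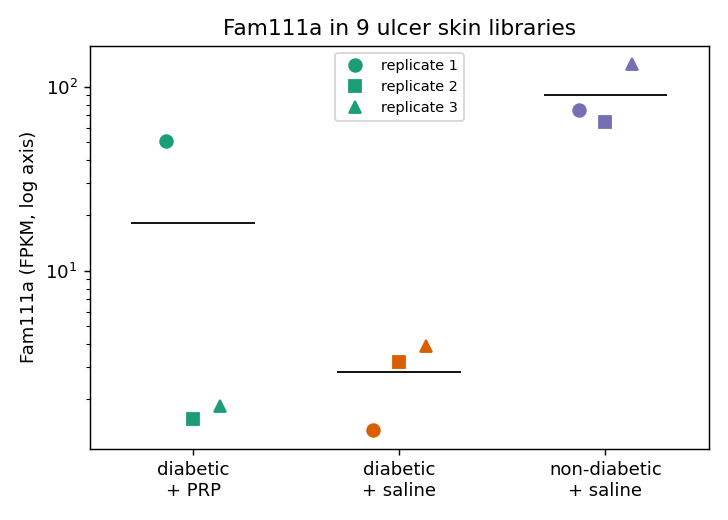
Fam111a level in FPKM (log axis) in each of the 9 libraries, by group, with the group mean as a line. All non-diabetic libraries and PRP replicate 1 lie at 50.9 FPKM or more, and the other 5 libraries lie at 3.91 FPKM or less.

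Group means hid this split in the PRP group. Fam111a averaged 18.1 ± 28.4 FPKM in PRP ulcers, 2.81 ± 1.32 FPKM in diabetic saline ulcers and 90.6 ± 37.1 FPKM in non-diabetic ulcers (SD, n = 3 each). On the log2(FPKM + 1) scale the SD was 2.47 in PRP ulcers, against 0.56 in diabetic saline ulcers and 0.55 in non-diabetic ulcers. PRP replicate 1 exceeded the mean of the other PRP libraries by 4.27 log2 units, or 30.0-fold in FPKM, so the mean of the group describes none of its libraries.

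Ordered by level, non-diabetic replicate 3 was highest at 133 FPKM, followed by non-diabetic replicate 1, non-diabetic replicate 2 and PRP replicate 1. After them came diabetic saline replicates 3 and 2, PRP replicates 3 and 2, and diabetic saline replicate 1 at 1.35 FPKM. The ratio between PRP replicate 1 and the next lower library, diabetic saline replicate 3, was 13.01. Every other ratio between neighbours in this order was between 1.16 and 1.79. Within groups, the highest library exceeded the lowest 2.89-fold in diabetic saline ulcers and 2.07-fold in non-diabetic ulcers, while PRP ulcers ran from 1.56 to 50.9 FPKM. Most of the smaller steps lay inside the range of 1 group, so they could not exceed its spread. The highest and lowest of all 9 libraries differed 98.3-fold.

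Fam111a was not silent in the low libraries. It ranked 12774 and 12108 of 15600 tested genes in PRP replicates 2 and 3, and 12897, 10852 and 9783 in diabetic saline replicates 1, 2 and 3. In PRP replicate 1 it ranked 1165, inside the top 7.47% of tested genes. In the non-diabetic libraries it ranked 637, 837 and 376, which is the top 4.08%, 5.37% and 2.41%. Rescaling each library to the same total (TPM) left the order of the 2 sets intact, with Fam111a at 69.9, 2.23 and 2.58 TPM in PRP libraries, 2.36, 5.06 and 5.79 TPM in diabetic saline libraries, and 132, 106 and 230.1 TPM in non-diabetic libraries.

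Between diabetic saline and non-diabetic ulcers, Fam111a differed by -4.58 on the log2(FPKM + 1) scale, and the groups did not overlap. Groups failed to overlap in 34.1% of all tested genes in this comparison. Fam111a was picked on these values, so nothing is read from that share. The non-diabetic mean was 32.2-fold the diabetic saline mean in FPKM.

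Between PRP and diabetic saline ulcers, the difference in Fam111a was 0.99 log2 units, and the groups overlapped. This value rested on PRP replicate 1. Without it the difference turned to -0.43, because the remaining PRP libraries averaged 0.604 of the diabetic saline mean in FPKM. Groups failed to overlap in 11.3% of tested genes in this comparison.

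Between PRP and non-diabetic ulcers, Fam111a differed by -3.59 log2 units. The groups did not overlap, which held for 29.4% of tested genes. PRP replicate 1 lay 0.75 log2 units below the non-diabetic mean, at 0.562 of its FPKM. Both comparisons with non-diabetic ulcers share the same 3 non-diabetic libraries, and both comparisons with diabetic saline ulcers share the same 3 diabetic saline libraries.

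Few tested genes had a split of this size. Fam111a was chosen for its split, so the ranks below only describe it. For each tested gene the libraries were sorted by log2(FPKM + 1) and the widest gap between adjacent libraries was taken, a measure added after the data were seen. The gap of Fam111a was 3.40 log2 units, rank 42 of 15600 tested genes, where the median gap was 0.33. Its whole range of 5.83 log2 units ranked 143. A gap of at least 3 log2 units occurred in 83 genes (0.532% of tested genes).

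Most of these 83 genes parted the libraries differently from Fam111a. In 45 of them only non-diabetic replicate 3 was low, in 21 only non-diabetic replicate 1 was low, and in 3 both were low. The epidermal keratin gene Krt1, for example, was at 949, 1939 and 803 FPKM in PRP libraries, 778, 991 and 1308 FPKM in diabetic saline libraries, and 540, 508 and 8.43 FPKM in non-diabetic libraries. The muscle carbonic anhydrase gene Ca3 was at 412, 564 and 361 FPKM in PRP libraries, 1357, 971 and 340 FPKM in diabetic saline libraries, and 10.4, 467 and 440.0 FPKM in non-diabetic libraries. Krt1 and Ca3 were named after their values were seen. Neither pattern resembles that of Fam111a, which was high in all non-diabetic libraries, replicate 2 included.

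**Figure D2:**
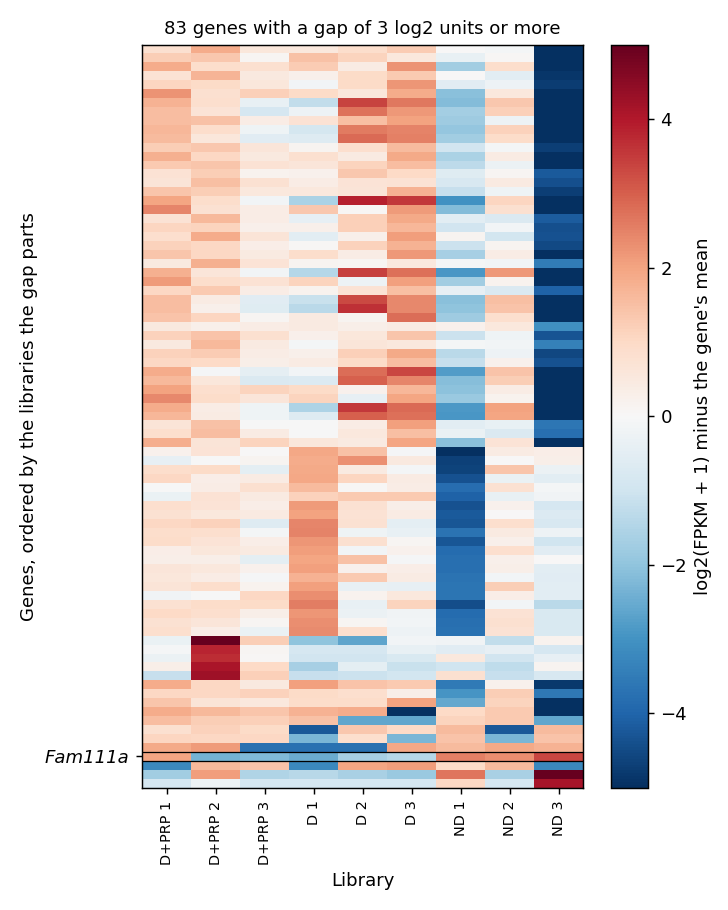
Each row is 1 of the 83 genes with a gap of at least 3 log2 units between adjacent libraries, and each column a library (D+PRP, diabetic with PRP; D, diabetic with saline; ND, non-diabetic). Colour gives log2(FPKM + 1) minus the mean of the gene and stops at 5 either way, and the outlined row is Fam111a, with PRP 1 and ND 1 to 3 high and the other 5 libraries low.

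Fam111a was the only tested gene whose widest gap put PRP replicate 1 and the 3 non-diabetic libraries above the other 5 with a gap of at least 1 log2 unit. Counting gaps of any size, 21 genes including Fam111a parted the libraries in this way. The other 20 had gaps of at most 0.53 log2 units, with a median of 0.23. These genes were picked for the same parting of libraries, so no test was made. The closest of them in gap was an unnamed feature (ENSRNOG00000068693) on chromosome 19. It was at 0.610, 0.0670 and 0.0498 FPKM in PRP libraries, 0, 0.0783 and 0 FPKM in diabetic saline libraries, and 0.613, 0.557 and 1.12 FPKM in non-diabetic libraries. It passed the filter of at least 0.5 FPKM in at least 3 libraries only through the libraries where Fam111a was high, and most of its levels there lay just above that filter. Hykk and Cebpe, also among the 20, likewise passed it only through those libraries.

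Few genes set PRP replicate 1 apart from the rest of its group as Fam111a did. It lay over 1 log2 unit above both other PRP libraries in 211 tested genes (1.35%) and as far below both in 114 (0.731%). The same counts were 184 and 54 for PRP replicate 2, and 38 and 168 for PRP replicate 3. Fam111a had the widest margin of the 211 genes, 4.20 log2 units above both other PRP libraries, and the next was at 3.53. A high level in PRP replicate 1 was part of the pattern Fam111a was chosen for, so this margin is a description only. Among the genes higher in PRP replicate 1, the core splicing gene Snrpd2 was at 76.9, 12.7 and 13.3 FPKM in PRP libraries, 12.2, 15.2 and 19.1 FPKM in diabetic saline libraries, and 13.02, 15.8 and 13.6 FPKM in non-diabetic libraries. Unlike Fam111a, Snrpd2 was high in PRP replicate 1 and in no other library. Snrpd2 was named after its values were seen.

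The region around Fam111a holds few genes that were measurable in this tissue. The table lists 28 features within 500 kb of it. Of these, 17 were at 0 FPKM in all libraries, and 13 carry names of olfactory receptors, which sense odours in the nose. The 5 that passed the filter of at least 0.5 FPKM in at least 3 libraries were Mpeg1, Dtx4, Cntf, Zfp91 and Lpxn. None of the other 23 exceeded 0.161 FPKM in any library. The closest of those is Glyatl1, a glycine N-acyltransferase family gene 10.8 kb beyond the end of Fam111a on the same strand. Glyatl1 was at 0.0252, 0 and 0 FPKM in PRP libraries, 0.00924, 0 and 0 FPKM in diabetic saline libraries, and 0.0786, 0 and 0.161 FPKM in non-diabetic libraries. High Fam111a libraries therefore showed almost no signal of the next gene downstream. None of the 249 long non-coding RNAs in the authors' count table lies within 500 kb.

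**Figure D3:**
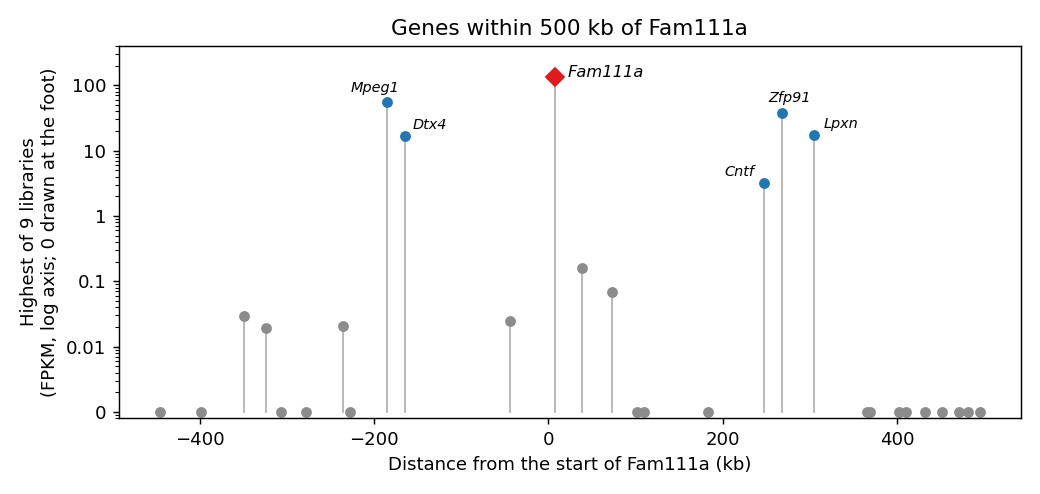
Highest level over the 9 libraries (FPKM, log axis, 0 drawn at the foot) of Fam111a (diamond) and the 28 features within 500 kb, placed by the middle of each feature in kb from the start of Fam111a. The 5 tested neighbours, in blue, lie 148.1 to 272.7 kb away by their nearest ends, and the grey features reach at most 0.161 FPKM.

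None of the 5 measurable neighbours showed the 13.01-fold step of Fam111a between PRP replicate 1 and the low libraries. Mpeg1 and Lpxn were lower in diabetic saline than in non-diabetic ulcers by limma, which is 2 of 5 neighbours, where 8.95% of all 15600 tested genes were called in this comparison (7.16% lower and 1.79% higher). With 5 genes this count is small, and both calls were lost in several alternatives.

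Mpeg1, which encodes a pore-forming protein of macrophages that attacks engulfed bacteria, lies 182.1 kb before Fam111a and is also 1 of the 12 macrophage markers used below. It was at 27.2, 25.6 and 33.4 FPKM in PRP libraries, 12.8, 5.44 and 17.3 FPKM in diabetic saline libraries, and 54.6, 31.3 and 52.7 FPKM in non-diabetic libraries. PRP replicate 1, which was high for Fam111a, lay between the other PRP libraries for Mpeg1. The diabetic saline minus non-diabetic difference was -1.96 log2 units (SE 0.38, limma adjusted p = 0.0323). Over 16 alternatives this adjusted p ran from 0.0133 to 0.755, and the call was kept in 6. These leave out the fit with rows of the same gene name kept apart, in which Mpeg1 and Lpxn were both called. The PRP minus diabetic saline difference of Mpeg1 was 1.33 (limma adjusted p = 0.713).

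Lpxn, which encodes leupaxin, a focal adhesion adaptor of blood cells, lies 272.7 kb beyond Fam111a. It was at 10.7, 7.61 and 10.03 FPKM in PRP libraries, 8.74, 2.43 and 5.73 FPKM in diabetic saline libraries, and 16.5, 11.9 and 17.4 FPKM in non-diabetic libraries. The PRP libraries of Lpxn lay close together, and its lowest library was diabetic saline replicate 2. The diabetic saline minus non-diabetic difference was -1.40 (SE 0.35, limma adjusted p = 0.0462). This adjusted p ran from 0.0174 to 0.758 over the same 16 alternatives, and the call was kept in 4. Leaving out any of the 3 PRP libraries, diabetic saline replicate 2 or 3, or non-diabetic replicate 1 or 3 ended the calls of both Mpeg1 and Lpxn, and their log2 differences then stayed below 0, from -2.28 to -1.53 for Mpeg1 and from -1.74 to -0.99 for Lpxn over all single libraries left out.

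Dtx4, a Deltex family ubiquitin ligase gene 148.1 kb before Fam111a, was at 5.57, 6.43 and 9.88 FPKM in PRP libraries, 4.54, 2.55 and 7.37 FPKM in diabetic saline libraries, and 15.1, 7.40 and 16.5 FPKM in non-diabetic libraries. Its diabetic saline minus non-diabetic difference of -1.28 did not pass (limma adjusted p = 0.0639). PRP replicate 1 had the lowest Dtx4 level of the PRP group, the reverse of Fam111a.

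Cntf, which encodes ciliary neurotrophic factor, lies 231.3 kb beyond Fam111a. Its level was 3.15, 2.16 and 2.89 FPKM in PRP libraries, 3.08, 3.10 and 1.60 FPKM in diabetic saline libraries, and 2.54, 1.81 and 1.76 FPKM in non-diabetic libraries. Zfp91, a zinc finger gene 234.8 kb beyond Fam111a, was at 16.7, 32.7 and 30.4 FPKM in PRP libraries, 38.1, 30.3 and 32.7 FPKM in diabetic saline libraries, and 34.3, 32.3 and 35.0 FPKM in non-diabetic libraries. PRP replicate 1 was the lowest library for Zfp91 and the highest for Cntf. Neither gene passed between diabetic saline and non-diabetic ulcers, with log2 differences of 0.22 for Cntf (limma adjusted p = 0.494) and -0.01 for Zfp91 (limma adjusted p = 0.976).

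**Figure D4:**
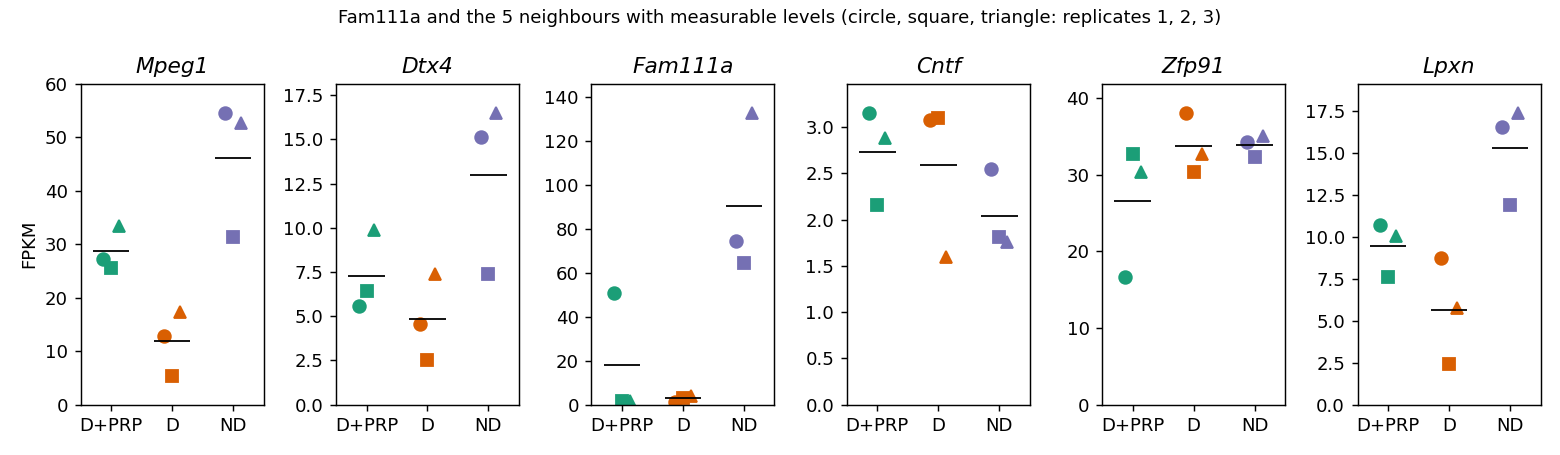
FPKM of Fam111a and its 5 measurable neighbours in each library, in chromosomal order, with the group mean as a line (D+PRP, diabetic with PRP; D, diabetic with saline; ND, non-diabetic). PRP replicate 1 (circle) stands 27.8-fold above PRP replicate 3 for Fam111a. Among the neighbours it is the highest of its group only for Cntf (3.15 FPKM) and Lpxn (10.7 FPKM).

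No neighbour passed in limma between PRP and diabetic saline ulcers, where 0.0% of all tested genes were called and 6.54% had an unadjusted p under 0.05. At an unadjusted p under 0.05, 1 of the 5 neighbours, Mpeg1, was higher in PRP ulcers. Between PRP and non-diabetic ulcers no neighbour passed either, and 0 of 5 had an unadjusted p under 0.05. In that comparison 0.00641% of tested genes were called and 20.4% had an unadjusted p under 0.05. Widening the window to 1000 kb gave 70 features, of which 13 were tested and 2 called between diabetic saline and non-diabetic ulcers, the same number as within 500 kb. A window of 250 kb held 12 features, 4 tested and 1 called.

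Likeness to Fam111a was measured as Pearson r of log2(FPKM + 1) over the 9 libraries. It is a description without a test, since Fam111a was chosen for its profile, the libraries fall into 2 sets on it, and all genes share the libraries and their scaling. An r of at least 0.9 was reached by 27 of 15599 genes (0.173%), and an r of -0.9 or below by 3 (0.0192%). The 27 include the gene Hykk and the unnamed features ENSRNOG00000068693 and ENSRNOG00000069427. These passed the filter of 0.5 FPKM only through libraries where Fam111a was high, so their place in this count was partly set by the filter. The count depended on PRP replicate 1, and without that library it was 217. With Spearman rho in place of r it was 62, and with size factors 13.

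The named gene most like Fam111a was Eme2, a subunit gene of a structure-specific endonuclease that cuts stalled replication forks, with an r of 0.963. Eme2 was at 16.5, 13.6 and 11.5 FPKM in PRP libraries, 11.5, 12.4 and 12.9 FPKM in diabetic saline libraries, and 18.0, 16.9 and 18.6 FPKM in non-diabetic libraries. PRP replicate 1 and the non-diabetic libraries were again the 4 highest, but the whole range of Eme2 spanned 0.66 log2 units, against 5.83 for Fam111a.

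Ppox, which encodes the haem synthesis enzyme protoporphyrinogen oxidase, had an r of 0.950. Ppox was at 4.58, 3.63 and 3.51 FPKM in PRP libraries, 3.67, 3.52 and 3.54 FPKM in diabetic saline libraries, and 4.24, 4.62 and 4.86 FPKM in non-diabetic libraries. Here PRP replicate 1 lay inside the non-diabetic range. Faap24, a Fanconi anaemia DNA repair factor gene on the same chromosome 121.6 Mb away, had an r of 0.940 and ordered all 9 libraries as Fam111a did (Spearman rho 1.0). Faap24 was at 2.75, 1.86 and 2.04 FPKM in PRP libraries, 1.72, 2.10 and 2.58 FPKM in diabetic saline libraries, and 3.14, 3.13 and 3.27 FPKM in non-diabetic libraries. Its diabetic saline replicate 3 came within a small step of PRP replicate 1, where Fam111a had its 13.01-fold ratio.

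The other 7 of the 10 named genes most like Fam111a were Coprs (r = 0.946), a cofactor of an arginine methyltransferase, the SOCS box gene Asb6 (0.936), Kctd14 (0.934), the pro-apoptotic gene Bad (0.932), the zinc finger gene Zfp37 (0.931), the cytochrome oxidase assembly gene Cox19 (0.926) and Rmc1 (0.924). Bad was at 13.03, 9.02 and 8.85 FPKM in PRP libraries, 9.47, 10.8 and 10.7 FPKM in diabetic saline libraries, and 14.2, 15.8 and 13.5 FPKM in non-diabetic libraries. Kctd14 had the widest range of the 10, 1.23 log2 units, with 5.95, 3.69 and 4.68 FPKM in PRP libraries, 3.61, 4.30 and 4.57 FPKM in diabetic saline libraries, and 6.36, 7.71 and 9.78 FPKM in non-diabetic libraries. For Bad, as for Fam111a, PRP replicate 1 and the non-diabetic libraries were the 4 highest. For Kctd14 they were the 4 highest too, and neither gene had a step of the size of that of Fam111a.

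Without non-diabetic replicates 1 and 3, the libraries farthest from the median level of Fam111a, r over the other 7 libraries was between 0.866 (Rmc1) and 0.959 (Ppox) for these 10 genes. Without PRP replicate 1 it was between 0.916 (Rmc1) and 0.960 (Eme2). The range of a gene's level over the libraries had a median of 0.662 log2 units among the 27 genes, against 0.968 among all tested genes. The 27 genes were selected for a high r, and their Spearman rho to Fam111a ran from 0.683 to 1.0.

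**Figure D5:**
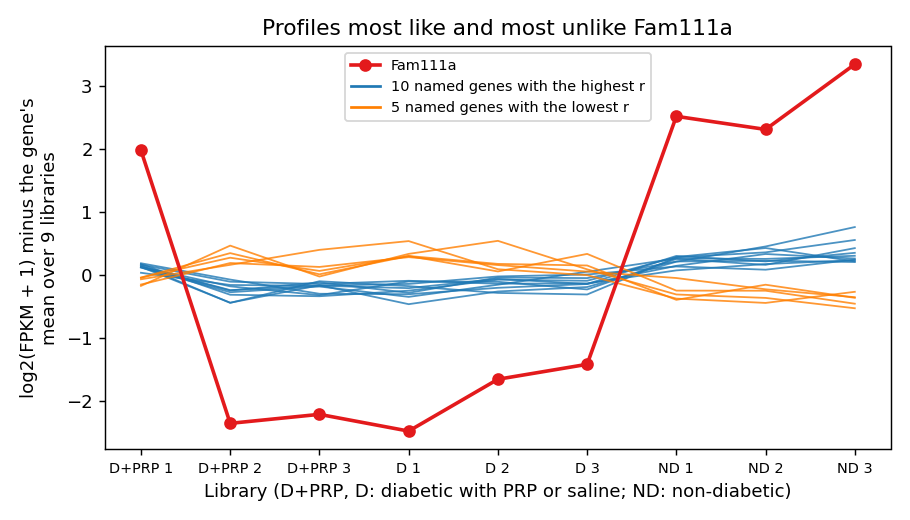
Profiles of log2(FPKM + 1) over the 9 libraries, each minus the mean of its gene, for Fam111a, the 10 named genes with the highest r and the 5 with the lowest (D+PRP, diabetic with PRP; D, diabetic with saline; ND, non-diabetic). Fam111a spans 5.83 log2 units, and no other gene drawn spans more than 1.23.

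Of the 27 genes, 5 lie on chromosome 1 (18.5%, against 12.5% of tested genes), and none lies within 500 kb of Fam111a. The nearest are Bad, 5.51 Mb away, and the receptor kinase gene Grk2, 8.06 Mb away. Grk2 was at 25.4, 23.1 and 20.3 FPKM in PRP libraries, 22.5, 21.3 and 22.8 FPKM in diabetic saline libraries, and 25.7, 25.5 and 26.6 FPKM in non-diabetic libraries. Its range is narrow, at 0.38 log2 units.

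The named genes with the lowest r ran opposite to Fam111a over small ranges. They were Cys1, a gene of primary cilia (r = -0.934), Tmem65 (-0.901), the homeobox gene Irx3 (-0.899), the thyroid hormone receptor gene Thrb (-0.884) and the transcription factor gene Nfatc2 (-0.874). Cys1 was at 0.979, 1.51 and 1.40 FPKM in PRP libraries, 1.68, 1.45 and 1.28 FPKM in diabetic saline libraries, and 1.13, 0.878 and 0.721 FPKM in non-diabetic libraries. Thrb was at 2.93, 5.13 and 3.36 FPKM in PRP libraries, 4.60, 5.46 and 3.72 FPKM in diabetic saline libraries, and 2.58, 2.45 and 2.07 FPKM in non-diabetic libraries. PRP replicate 1 was the lowest PRP library for both genes, as it was the highest for Fam111a.

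Genes of the processes in which human FAM111A takes part were listed and read beside it. The 6 lists held 172 genes, of which 164 are in the table and 151 were tested. Between diabetic saline and non-diabetic ulcers, limma called 9 of the 151 genes lower and 0 higher, against 7.16% lower and 1.79% higher among all tested genes. The median difference over the 151 genes was 0.03 log2 units, against 0.04 over all tested genes. At an unadjusted p under 0.05, 16 were higher and 35 lower, or 51 of 151 genes, near the 34.7% of all tested genes that reached this in the same comparison. The median of these genes thus lay next to that of all genes, while Fam111a differed by -4.58.

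Among replication fork genes none had the profile of Fam111a. None of 33 was called in limma between diabetic saline and non-diabetic ulcers (6 had an unadjusted p under 0.05, against 34.7% of all tested genes). Of the 33, 31 had a positive difference, with a median of 0.41 log2 units, against 0.04 over all tested genes. The 33 genes summed to 216.5, 360.5 and 316.2 FPKM in diabetic saline replicates 1, 2 and 3. Replicate 1 thus lay inside the non-diabetic range of 185.9 to 270.5 FPKM. Pcna, the clamp that human FAM111A binds, was at 32.1, 25.9 and 24.7 FPKM in PRP libraries, 27.7, 37.7 and 38.2 FPKM in diabetic saline libraries, and 21.3, 35.5 and 25.1 FPKM in non-diabetic libraries. Its levels overlapped between all groups. The highest r to Fam111a in this list was 0.70 (Cdc45) and the lowest -0.62 (Gins1).

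Genes for DNA-protein crosslink and fork repair gave 0 calls among 28 in limma, with 4 at an unadjusted p under 0.05 (34.7% of all tested genes) and a median difference of 0.20 log2 units. The topoisomerase gene Top1, whose product FAM111A helps to clear from DNA in human cells, was at 22.8, 23.5 and 19.1 FPKM in PRP libraries, 18.7, 33.1 and 22.9 FPKM in diabetic saline libraries, and 19.0, 18.7 and 17.9 FPKM in non-diabetic libraries. Top1 had an r of -0.40 to Fam111a, and its highest library was diabetic saline replicate 2, where Fam111a was low.

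Antiviral restriction genes had 2 of 28 lower in diabetic saline ulcers, Ifitm1 and Ifitm3, which encode membrane proteins that block virus entry. This count is near the share of all tested genes called lower, 7.16%. The median difference was -0.36 log2 units. Ifitm3 was at 97.1, 84.6 and 108 FPKM in PRP libraries, 98.9, 53.3 and 87.9 FPKM in diabetic saline libraries, and 169, 139 and 246 FPKM in non-diabetic libraries. Its difference was -1.20 (SE 0.28, limma adjusted p = 0.0414), and that of Ifitm1 was -1.62 (limma adjusted p = 0.0442). PRP replicate 1 sat with the other diabetic libraries for Ifitm3, not with the non-diabetic ones as for Fam111a. Ifitm1 was at 31.4, 25.1 and 24.03 FPKM in PRP libraries and 29.3, 9.85 and 14.8 FPKM in diabetic saline libraries. Its non-diabetic libraries were at 56.8, 33.25 and 75.8 FPKM. Thus PRP replicate 1 and the non-diabetic libraries were the highest for Ifitm1, as for Fam111a, with diabetic saline replicate 1 close below.

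The median difference of type I interferon response genes was -0.53 log2 units. Against 7.16% of all tested genes, limma called 3 of these 28 lower in diabetic saline ulcers. They were Stat2, which carries the interferon signal to the nucleus (-0.53, limma adjusted p = 0.0437), and the ADP-ribosyltransferase family genes Parp9 (-0.73, limma adjusted p = 0.0430) and Parp14 (-1.09, limma adjusted p = 0.0361). Stat2 was at 7.23, 8.35 and 8.51 FPKM in PRP libraries, 8.63, 9.09 and 8.47 FPKM in diabetic saline libraries, and 14.2, 12.2 and 12.9 FPKM in non-diabetic libraries. For Stat2 and Parp14, PRP replicate 1 was the lowest PRP library.

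Among parathyroid and calcium handling genes, 10 of 20 were tested and 1, the parathyroid hormone receptor gene Pth1r, was lower in diabetic saline ulcers (-0.93, SE 0.22, limma adjusted p = 0.0425). Of all tested genes, 7.16% were called lower in this comparison. Pth1r was at 10.7, 11.6 and 14.1 FPKM in PRP libraries, 6.53, 3.96 and 7.93 FPKM in diabetic saline libraries, and 12.95, 11.1 and 12.7 FPKM in non-diabetic libraries. All 3 PRP libraries lay in or near the non-diabetic range of Pth1r, whereas for Fam111a 2 of the 3 lay far below that range. The calcium channel gene Trpv5 and the calcium-binding gene S100g were listed at 0 in all libraries.

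The median difference of genes of other trypsin-fold serine proteases was 0.20 log2 units. Against 7.16% of all tested genes, limma called 3 of the 26 tested here lower in diabetic saline ulcers. These were the plasminogen activators Plau (-1.66, limma adjusted p = 0.0308) and Plat (-2.12, limma adjusted p = 0.0308), and the mitochondrial protease Htra2 (-0.88, limma adjusted p = 0.0361). Plau was at 9.89, 13.3 and 14.0 FPKM in PRP libraries, 13.7, 8.82 and 7.55 FPKM in diabetic saline libraries, and 38.3, 28.4 and 32.5 FPKM in non-diabetic libraries. Plau shared the high non-diabetic level of Fam111a, and its PRP replicate 1 was the lowest of the PRP group. All 9 calls in these lists were lost without PRP replicate 1 or 2, diabetic saline replicate 2 or 3, or non-diabetic replicate 1 or 3.

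Between PRP and diabetic saline ulcers, limma called 0 of the 151 genes, against 0.0% of all tested genes. An unadjusted p under 0.05 was reached by 5, 4 of them higher, against 6.54% of all tested genes. Between PRP and non-diabetic ulcers limma again called 0, against 0.00641% of all tested genes. Here 32 of the 151 genes had an unadjusted p under 0.05, 28 of them lower. This is near the 20.4% of all tested genes that reached this in the same comparison. The highest r to Fam111a over all 6 lists was 0.80 (Htra4).

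Summed marker levels of 14 cell types and states were set beside Fam111a. Macrophage genes were the only list of all 20 whose 4 highest libraries were those of Fam111a. The 12 macrophage genes summed to 1985, 1026 and 1701 FPKM in PRP libraries, 1482, 334.8 and 635.1 FPKM in diabetic saline libraries, and 3017, 2202 and 2777 FPKM in non-diabetic libraries. The fourth library exceeded the fifth 1.17-fold in this sum, against 13.01-fold for Fam111a. None of the 12 was at 0 in all libraries, and limma called 8 of 12 lower in diabetic saline than in non-diabetic ulcers, where 7.16% of all tested genes were called lower. In the same comparison it called 4 of 10 fibroblast, 3 of 6 B and plasma cell, 2 of 8 neutrophil, 2 of 8 endothelial and 1 of 6 T and NK cell genes lower. It called 4 of 7 melanocyte and 1 of 7 cornified keratinocyte genes higher, where 1.79% of all tested genes were called higher. The remaining marker lists held no called gene. The r to Fam111a of single macrophage genes ran from 0.42 (Cd163) to 0.69 (Adgre1). The part of macrophage content in the level of Fam111a was not tested.

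The other marker lists ordered the libraries differently from Fam111a. Fibroblast genes summed to 10340.0 to 23810.0 FPKM in PRP libraries, 3099 to 16490.0 FPKM in diabetic saline libraries and 17620.0 to 22580.0 FPKM in non-diabetic libraries, and PRP replicate 1 ranked 7 of 9. The sum of neutrophil genes was highest in PRP replicate 2, at 6061 FPKM, where Fam111a was at 1.56 FPKM. S100a9 alone made up 3566 FPKM of that sum. By mean log2(FPKM + 1) of the same genes, non-diabetic replicate 3 was highest at 5.09. Non-diabetic replicate 1 (4.489) and PRP replicate 2 (4.487) followed, and non-diabetic replicate 2 was at 2.12, so the order of this list depended on the measure. Proliferation genes summed to 98.0 FPKM in PRP replicate 1, the highest of the PRP group, and to 45.5, 80.2 and 70.2 FPKM in non-diabetic libraries, below 2 of the 3 diabetic saline libraries at 153 and 116 FPKM. Hair follicle genes summed to 3202 FPKM in PRP replicate 1 and to 210, 2853 and 9.66 FPKM in non-diabetic libraries, so libraries with high Fam111a included the lowest and the third highest of this sum. The Y-linked gene Kdm5d was measured in all 9 libraries at 7.23 to 10.3 FPKM, so the high and the low libraries of Fam111a did not differ in its presence.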

How the data were processed

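Gene levels are FPKM for 9 libraries, as the authors deposited them. Per the submitters' processing notes the tools included HISAT2, StringTie, cutadapt and FastQC, with no version or role, and the genome was GRCm39, a mouse assembly, although all gene identifiers are rat. The authors' second table holds raw read counts of 249 lncRNAs, per the file headers. It was used here for relative depth and positions only. Its further columns, a signal deposited as group means of normalized counts, the authors' log2 fold change and the authors' p-values, were not used here. No column lies outside the samples.

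Rows of the same gene name were summed. Genes of at least 0.5 FPKM in at least 3 libraries were fitted as log2(FPKM + 1) with limma-trend (limma 3.58.1, R 4.3.3), with 3 groups over 9 libraries, two-sided contrasts and Benjamini-Hochberg adjustment over 15600 genes. Genes with an adjusted p under 0.05 are called. The pseudocount understates changes of low genes. The fit was also run on simulated data in which all genes had the same spread and libraries varied independently. Real genes differ in spread, so that run does not gauge the reliability of the calls given here. The p-values measure the spread between these libraries, and nothing in the labels beyond the words for biological replicates says which animals they came from.

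Fam111a, the lists and the measures were chosen with earlier results of these data known. Named genes are the neighbours within 500 kb, the 10 highest and 5 lowest by r among named genes reaching 1 FPKM, and up to 4 members per list, those called first and then by mean level. Alternatives were another pseudocount (0.1), size factors, other filters, rows kept apart, 6 libraries, a replicate block, other windows, other measures of likeness and leaving out each library. No sequence is printed, because only mouse sequence was at hand.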

Additional observations from a re-analysis of the deposited data

How the results depend on the processing

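The Fam111a difference between diabetic saline and non-diabetic ulcers ran from -5.01 to -4.17 log2 units over the other pseudocount, size factors and libraries left out, and that between PRP and non-diabetic ulcers from -5.02 to -2.85. Values of Fam111a itself under the other alternatives are not given here. Between PRP and diabetic saline ulcers it was 1.03 with a pseudocount of 0.1 and with size factors, and -0.43 to 1.74 with single libraries left out, below 0 only without PRP replicate 1. The 2 neighbours called between diabetic saline and non-diabetic ulcers became 1 with a pseudocount of 0.1, size factors or a 250 kb window, and 0 with no filter, with only the 6 libraries compared, and without non-diabetic replicates 1 and 3 together (an alternative chosen after seeing the data). With single libraries left out the count was 0 to 3. The 9 called genes of the related lists became 3 with size factors and 0 with no filter, the 6 libraries, or without non-diabetic replicates 1 and 3. They were 0 to 33 with single libraries left out, highest without diabetic saline replicate 1. Over all tested genes the 1396 calls became 861 with size factors, 0 with no filter and 0 to 3501 with single libraries left out. For PRP against non-diabetic ulcers the lists gave 0 to 4 calls, the 4 without non-diabetic replicate 2. The count of genes with an r of at least 0.9 was 13 with size factors, 62 with Spearman rho and 19 to 217 with single libraries left out. The cause was not tested. Read totals are unknown, so no interval from depth can be given.

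Whether the replicate numbers pair the samples is not stated in the labels. Same-numbered libraries correlated from -0.407 to 0.351 in their deviations from the group means, and differently numbered ones from -0.439 to 0.552. With 3 libraries per group these values cannot decide it. With the number as a replicate block, 3 neighbours (Dtx4, Lpxn and Mpeg1), 12 genes of the related lists and 1259 genes in all were called between diabetic saline and non-diabetic ulcers. In the other comparisons the block gave 0 calls among neighbours and lists.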

Other observations

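Other features also had wide gaps between libraries that did not follow the groups. Of the 83 genes with a gap of at least 3 log2 units, 14 parted the libraries other than by low levels in non-diabetic replicates 1 and 3 alone, and Fam111a was the only one of the 14 with 4 or 5 high libraries. Named genes here were chosen after their values were seen. Nos2, the inducible nitric oxide synthase gene, was at 0.0869, 14.7 and 0.278 FPKM in PRP libraries, 0.386, 0.181 and 0.0231 FPKM in diabetic saline libraries, and 22.2, 0.186 and 120.0 FPKM in non-diabetic libraries. The defensin gene Defb4 was at 0, 41.6 and 4.16 FPKM in PRP libraries, at most 0.186 FPKM in diabetic saline libraries, and 2.90, 0 and 0.279 FPKM in non-diabetic libraries.

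Some features were at 0 or close to 0 in some libraries of a group and well above 0 in the others. The feature AABR07042903.1 on chromosome 19 was at 48.5, 57.4 and 0 FPKM in PRP libraries, 0, 0 and 49.3 FPKM in diabetic saline libraries, and 39.1, 47.6 and 42.8 FPKM in non-diabetic libraries. The feature ENSRNOG00000064427 on chromosome 10 was at 16.6, 13.1 and 12.8 FPKM in PRP libraries, 15.9, 0 and 0 FPKM in diabetic saline libraries, and 12.2, 14.2 and 0 FPKM in non-diabetic libraries. The feature AABR07031184.2 on chromosome 18 was the only tested gene lower in PRP replicate 1 than in both other PRP libraries by as much as Fam111a was higher. It was at 0.122, 31.5 and 27.0 FPKM in PRP libraries, 0.129, 41.0 and 44.1 FPKM in diabetic saline libraries, and 19.7, 30.6 and 0.146 FPKM in non-diabetic libraries. Its low libraries came from all 3 groups.

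The ubiquitin protease gene Usp4 was at 0.937, 14.1 and 15.1 FPKM in PRP libraries, 8.78, 3.42 and 17.1 FPKM in diabetic saline libraries, and 16.4, 3.09 and 2.22 FPKM in non-diabetic libraries. The levels of Usp4 differed severalfold within each group, without any gap of 3 log2 units.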
